A study of Mus musculus with 10 samples.

Results

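Complement genes were followed in the lactating mammary glands of CBA and QSi5 mice. The genes were C1qa, C1qb, C1qc, C1ra, C2, C3, C4b, Cfb and Serping1. A probe set was taken where the array annotation gave it exactly 1 gene symbol and that symbol was one of these. This gave 9 probe sets for 7 of the 9 genes, among 20380 probe sets for 12393 genes. No probe set carried C3 alone, and the probe set for C4b was annotated to C4a and C4b together, so it is given below as a shared C4a/C4b measurement and is counted with neither gene. C1ra lay below the intensity minimum, and 8 probe sets for 6 genes were tested.

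The study asked which genes differ in the gland between mice of high maternal performance, the QSi5 strain, and CBA mice. QSi5 is an inbred line derived from Quackenbush-Swiss mice and selected for litter size, and CBA (CBA/CaH) is an inbred laboratory strain. Each strain gave 5 mothers at day 9 of their first lactation, when weaning was forced, and the whole of the fourth inguinal gland was used with 1 Affymetrix array per mouse. In each strain 3 mice were on the MOE430 2.0 array and 2 were on the smaller MOE430A 2.0 array, so array type was balanced. All values below are log2 intensities, and differences are QSi5 minus CBA with the limma SE. Genes called higher or lower in QSi5 have a p under 0.05 after Benjamini-Hochberg (BH) adjustment over the 11412 probe sets that passed the intensity minimum. The whole gland holds secretory, fat, stromal and blood-derived cells, so that fewer cells of a type and less RNA per cell cannot be told apart. Milk protein genes were among the brightest of 22626 probe sets in both strains, with Wap, Csn3 and Csn2 at ranks 1 to 3.

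Complement is a cascade of plasma proteins that marks microbes, immune complexes and dying cells for removal. The classical route begins when C1q, a protein built of A, B and C chains from separate genes, binds its target. The protease C1r then activates the protease C1s, which cuts C4 and C2. Lectins such as the ficolins also lead to the cutting of C4 and C2, factor B serves the alternative route, and all routes meet at C3. C1q is made mainly by macrophages, whereas Serping1 encodes the inhibitor of C1r and C1s.

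C1qa was the only gene called among the 6 tested, and it was higher in QSi5. The 3 C1q genes lie side by side on chromosome 4 of GRCm38.p6, with C1qb at chr4:136880126-136886200, C1qc at chr4:136889801-136892936 and C1qa at chr4:136895916-136898844. Of the 9 genes, 4 had a RefSeq promoter window here, namely C1qb, C1qc, C1ra and C3. The windows of C1qb and C1qc are shown because these genes lie beside C1qa yet had strain differences near 0. Each line gives the 250 bases before the start of the gene in the promoter table, on the minus strand, from chr4:136886201-136886450 for C1qb and chr4:136892915-136893164 for C1qc. For C1qc this start lies inside the gene span given above, so the last bases of its line fall within that span.
C1qb: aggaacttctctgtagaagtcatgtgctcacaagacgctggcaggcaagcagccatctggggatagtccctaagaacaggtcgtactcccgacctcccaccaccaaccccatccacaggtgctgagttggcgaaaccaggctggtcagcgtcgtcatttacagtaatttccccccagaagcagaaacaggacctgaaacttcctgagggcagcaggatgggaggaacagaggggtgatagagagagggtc
C1qc: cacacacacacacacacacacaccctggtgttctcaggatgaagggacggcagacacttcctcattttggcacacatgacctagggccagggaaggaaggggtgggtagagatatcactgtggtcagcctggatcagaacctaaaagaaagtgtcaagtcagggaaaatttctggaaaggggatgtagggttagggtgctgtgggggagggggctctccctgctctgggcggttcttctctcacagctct
Capitals were to mark matches to 5 motifs searched on both strands over the 300-base windows of the table, and there are none in either sequence. The motifs and the share of 32544 distinct windows holding each were the gamma-activated site TTCNNNGAA in 8.33%, the interferon-stimulated response element in 3.45%, the NF-kB motif in 0.415%, the C/EBP letters TTGCNNAA in 10.8% and the TATA box TATAAA in 13.6%. Of the windows not printed, that of C1ra held 1 gamma-activated site match and 1 C/EBP match. The C3 window held 1 C/EBP match and 1 TATA box match. The presence or absence of these letters says nothing about the factors that bind here.

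C1qa encodes the A chain of C1q. Its probe set 1417381_at read 6.62, 6.35, 6.23, 6.99 and 6.11 in CBA mice 1 to 5 and 7.62, 6.97, 8.06, 7.70 and 8.07 in QSi5 mice 1 to 5. The strains overlapped only because CBA mouse 4 read slightly above QSi5 mouse 2. Means were 6.46 ± 0.35 (SD, n = 5) and 7.68 ± 0.45 (SD, n = 5), a difference of 1.22 (SE 0.22, 95% interval 0.74 to 1.70), or 2.33-fold, with a limma adjusted p of 0.00913. For comparison, 2.94% of all tested probe sets were called, with 1.44% higher and 1.51% lower in QSi5, and 3.62% were called with array type as a block. Within array types the difference was 1.37 (MOE430 2.0) and 1.01 (MOE430A 2.0), and with array type as a block the limma adjusted p was 0.00293. On the 4 MOE430A 2.0 arrays alone it was not called, at an adjusted p of 0.238. C1qa was measured by 1 probe set, and a sequence difference between the strains under its probes was not tested for.

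C1qb and C1qc encode the other two chains, and neither was called. The C1qb probe set without a suffix, 1417063_at, read 5.66, 5.10, 5.42, 5.65 and 5.07 in CBA mice 1 to 5 and 5.83, 5.57, 5.53, 5.11 and 5.41 in QSi5 mice 1 to 5. The strains overlapped over most of their range, and the difference of 0.11 (SE 0.16, interval −0.24 to 0.46) had a limma adjusted p of 0.804. The C1qc probe set 1449401_at read 5.59, 5.43, 6.27, 5.67 and 4.96 in CBA mice 1 to 5 and 5.83, 5.49, 5.47, 5.45 and 5.49 in QSi5 mice 1 to 5. Its difference was −0.04 (SE 0.20, interval −0.47 to 0.39, limma adjusted p 0.954), with the highest and the lowest reading both in CBA. The upper ends of both intervals lie below the lower end of the interval for C1qa.

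C1qa and the other C1q chains were compared within each array. This contrast was chosen after the values were seen. C1qa minus the mean of C1qb (1417063_at) and C1qc lay between 0.38 and 1.34 in CBA mice and between 1.44 and 2.62 in QSi5 mice, without overlap. The strain difference of this contrast was 1.19, given as a description with no test. The difference was 1.11 against C1qb alone and 1.26 against C1qc alone. With the C1qb probe sets bearing the suffix _x_at in place of 1417063_at it was 1.39, and the strains then overlapped.

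**Figure D1:**
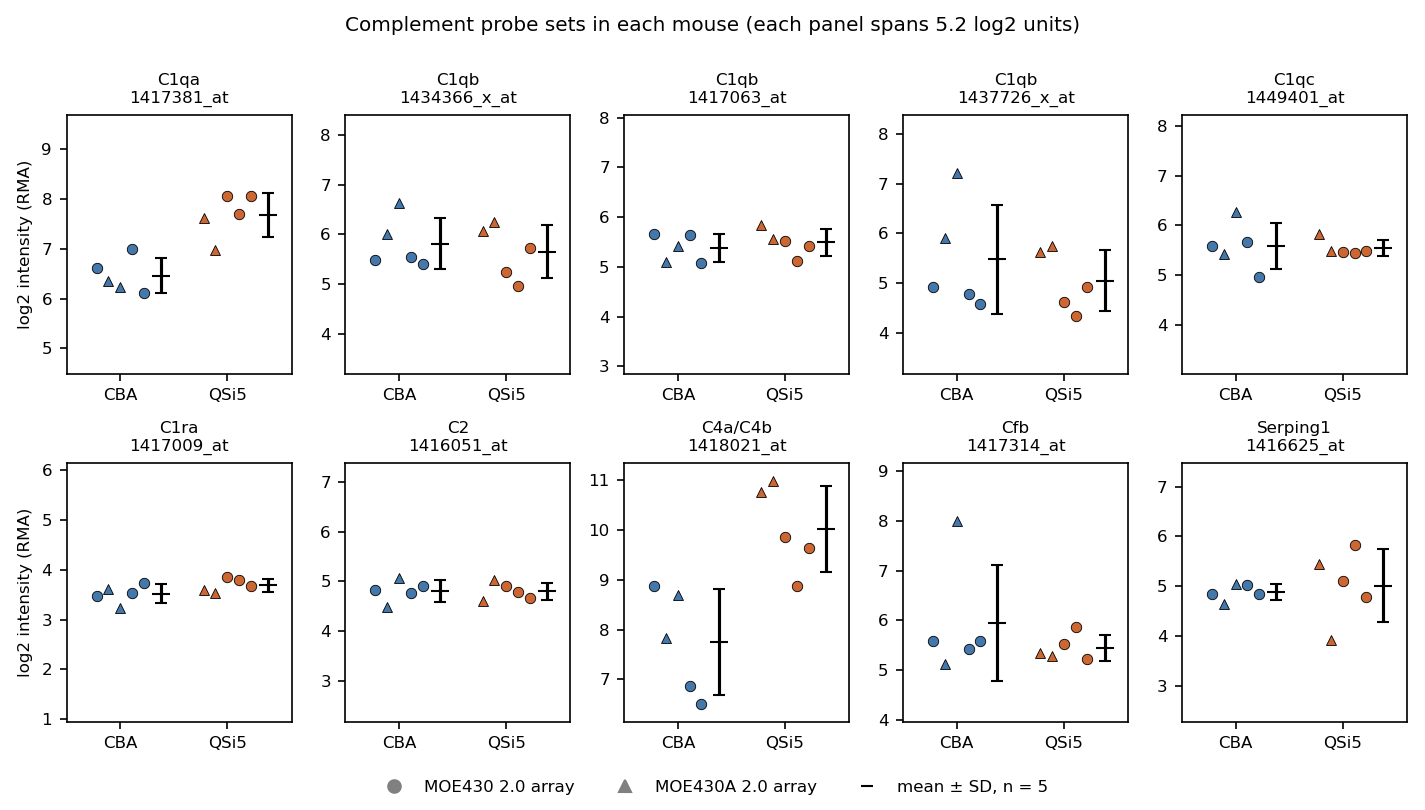
Log2 RMA intensity (vertical axis) of each complement probe set in 5 CBA and 5 QSi5 mice (horizontal axis, mice 1 to 5 from left to right within a strain), with circles for MOE430 2.0 arrays, triangles for MOE430A 2.0 arrays, and bars for mean ± SD. C1qa and the shared C4a/C4b probe set sit higher in QSi5, the Cfb reading of CBA mouse 3 stands alone at 8.0, and the triangles lie above the circles in both strains for the C1qb probe sets with the suffix _x_at.

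The suffix _x_at marks probe sets with probes that can match other transcripts, and both such C1qb probe sets moved with array type. Probe set 1434366_x_at read 6.01 and 6.63 in CBA mice 2 and 3 and 6.07 and 6.24 in QSi5 mice 1 and 2, all on MOE430A 2.0 arrays, against 4.97 to 5.72 in the 6 mice on MOE430 2.0 arrays. The MOE430A 2.0 arrays were higher by 0.84 (SE 0.16, limma adjusted p 0.0485) with strain in the fit. For 1437726_x_at the array types differed by 1.43 (SE 0.24, limma adjusted p 0.0301), while 0.526% of all tested probe sets differed by array type. The same term was 0.08 for 1417063_at (adjusted p 0.837). Strain differences of both suffixed probe sets were below their error, at −0.16 (SE 0.28, limma adjusted p 0.841) and −0.43 (SE 0.47, limma adjusted p 0.722). After strain means were subtracted these probe sets correlated at r = 0.95 over the 10 arrays, which include the difference in array type that they share. The mean of C1qa, C1qc and 1434366_x_at, the brightest C1qb probe set, was also compared with all tested genes. By Pearson r after strain means were subtracted, the genes most like it were Ogdh (0.97), Bspry (0.96), Lrrc58 (0.95), Crybg3 (0.93) and Mtfr1 (0.92). This mean carries the array type difference of 1434366_x_at. Its members did not move as one. By the same measure C1qa correlated at −0.50 with 1434366_x_at and at 0.08 with C1qc, while 1434366_x_at and C1qc correlated at 0.64. The 5 genes are thus not shown to follow C1qa.

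C1q is a macrophage product, so the macrophage list was set beside C1qa. Of 15 listed markers 10 were tested, and 0 were called in either direction, against 2.70% of all tested genes. The same list had 1 gene at an unadjusted limma p under 0.05, against 1098 of all 7361 tested genes. Its median difference was 0.03 against 0.00 over all tested genes. The differences ran from −1.40 for Cd14, a receptor for bacterial lipopolysaccharide (SE 0.62, unadjusted p 0.0440, limma adjusted p 0.315), to 0.56 for the lysozyme gene Lyz2 (SE 0.53, limma adjusted p 0.678). Between them lay Ctss at −0.39, Csf1r at 0.09 (SE 0.15, interval −0.24 to 0.41, limma adjusted p 0.842) and Adgre1 at −0.03 (SE 0.11, interval −0.27 to 0.22, limma adjusted p 0.939). The list's mean level, relative to all arrays, ran from −0.23 to 0.59 in CBA and from −0.22 to 0.33 in QSi5. The strains overlapped in this mean, in which members of opposite sign are averaged. The part of macrophage number in the C1qa reading was not tested.

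C1ra and C2 encode proteases of the classical route, and their readings lay close together in all mice. C1ra (1417009_at, chromosome 6) read from 3.23 to 3.74 in CBA and from 3.53 to 3.85 in QSi5, below the minimum of 20 on the unlogged scale, and was not tested. Fitted without that minimum its difference was 0.17, with a limma adjusted p of 0.630. C2 (1416051_at) read 4.83, 4.48, 5.07, 4.77 and 4.90 in CBA mice 1 to 5 and 4.60, 5.02, 4.91, 4.78 and 4.66 in QSi5 mice 1 to 5. The strains covered almost one range, with a difference of −0.01 (SE 0.13, interval −0.29 to 0.26, limma adjusted p 0.974). The means were low, at 4.81 in CBA and 4.80 in QSi5.

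C4 is a protein that C1s and the lectin proteases cut. The shared C4a/C4b probe set 1418021_at read 8.87, 7.82, 8.70, 6.87 and 6.50 in CBA mice 1 to 5 and 10.76, 10.99, 9.85, 8.88 and 9.64 in QSi5 mice 1 to 5. The strains did not overlap, although CBA mouse 1 and QSi5 mouse 4 were almost level. Strains failed to overlap in 5.14% of all tested probe sets. Means were 7.75 ± 1.06 (SD, n = 5) and 10.02 ± 0.86 (SD, n = 5), so the difference was 2.27 (SE 0.50, interval 1.17 to 3.37), or 4.83-fold, with a limma adjusted p of 0.0306. With array type as a block the limma adjusted p was 0.00898, and the difference was 2.04 on MOE430 2.0 arrays and 2.61 on MOE430A 2.0 arrays. The call was lost in 9 of 22 alternative analyses, 7 of them with 1 mouse left out, at adjusted p values up to 0.204, while the difference stayed between 1.96 and 2.61. C4b (chr17:34728139-34743902) and C4a (chr17:34809092-34823460) are near-identical copies, and the reading cannot be assigned to either of them.

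Cfb encodes factor B, the protease of the alternative route. Its probe set 1417314_at read 5.59, 5.12, 8.0, 5.43 and 5.59 in CBA mice 1 to 5 and 5.34, 5.28, 5.53, 5.86 and 5.23 in QSi5 mice 1 to 5. CBA mouse 3 stood more than 2 log2 units above every other mouse, and the remaining 9 overlapped. The difference was −0.50 (SE 0.44, limma adjusted p 0.657) over all mice and 0.01 (limma adjusted p 0.986) without CBA mouse 3. Cfb lies beside C2 at chr17:34856374-34862514. C2 was also highest in CBA mouse 3, at 5.07, but QSi5 mouse 2 was almost level at 5.02.

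The same mouse was set apart by interferon-induced genes. The mean level of 13 tested genes of the interferon list was 2.26 in CBA mouse 3 against −0.48 to 0.11 in the remaining 9, and none of these genes was called between strains. In the same list 0 genes had an unadjusted limma p under 0.05, against 1098 of all 7361 tested genes. The strain difference in the list's level was −0.29 with CBA mouse 3 and 0.23 without that mouse. The acute phase and Stat3 list was also highest in CBA mouse 3, at 2.23, followed by 1.57 in CBA mouse 1. The genes most like Cfb, by Pearson r over the 10 arrays after strain means were subtracted, were Ifi47 (0.97), Oas1a (0.97), Irf7 (0.97), Psmb9 (0.96) and Ccl8 (0.96), a measure taken after the Cfb values were seen. Without CBA mouse 3 the values over 9 arrays were 0.57, 0.51, 0.80, 0.78 and 0.30 in the same order, with Irf7 and Psmb9 keeping the higher values.

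**Figure D2:**
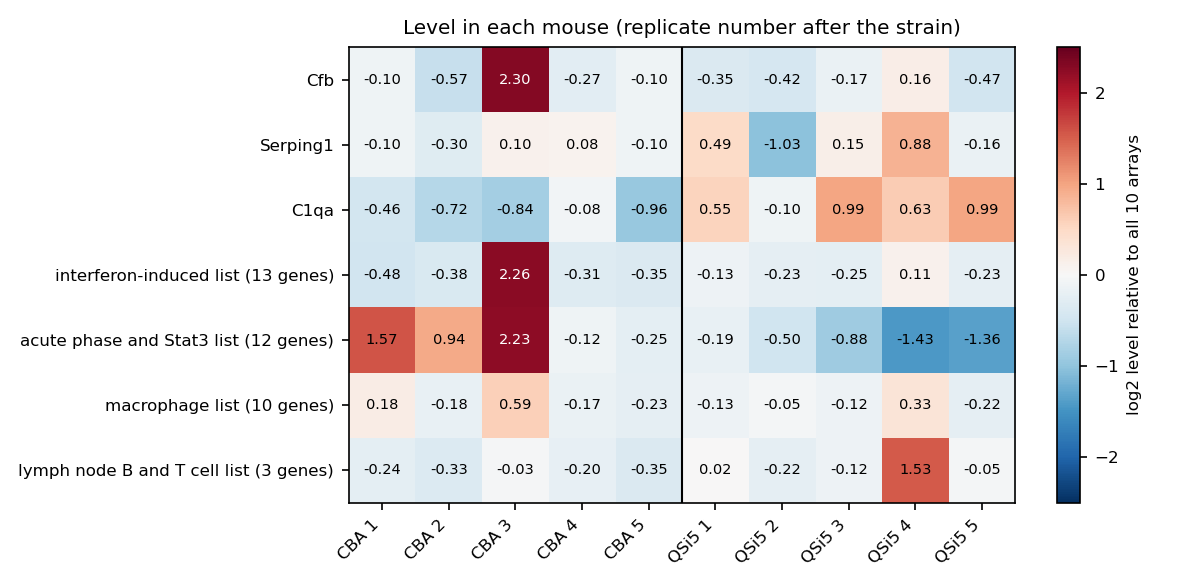
Log2 level in each mouse (columns, CBA left of the line and QSi5 right) relative to the mean of all 10 arrays, for 3 complement genes and for the mean level of 4 gene lists (rows), with red above and blue below the mean. Cfb and the interferon-induced list are both highest in CBA 3, at 2.30 and 2.26, while C1qa is above the mean in 4 of 5 QSi5 mice and the macrophage list lies between −0.23 and 0.59 over all mice.

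Serping1 encodes the C1 inhibitor. Its probe set 1416625_at (gene on chromosome 2) read 4.85, 4.65, 5.05, 5.02 and 4.85 in CBA mice 1 to 5 and 5.43, 3.91, 5.09, 5.82 and 4.79 in QSi5 mice 1 to 5. Both the lowest and the highest mouse were QSi5, and the difference was 0.13 (SE 0.28, interval −0.48 to 0.74, limma adjusted p 0.881). The means were low, at 4.88 in CBA and 5.01 in QSi5, and QSi5 mouse 2 lay below the intensity minimum. Without QSi5 mouse 4, the highest, the difference was −0.08, and without QSi5 mouse 2, the lowest, it was 0.40. QSi5 mouse 4, with the highest Serping1 reading, also had a mean level of 1.53 over 3 tested genes of the B and T cell list. The other 9 mice ran from −0.35 to 0.02. The 3 genes, Ptprc, Cd22 and Cd3e, read 8.10, 7.10 and 7.16 in QSi5 mouse 4. The highest CBA readings were 5.56, 6.21 and 6.85, so the list level rested mainly on Ptprc. The macrophage list level of QSi5 mouse 4 was 0.33, the highest among QSi5 mice. The part of any cell type in the Serping1 reading was not tested.

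By gene, on the brightest probe set of each, 1 of the 6 tested complement genes was higher, 0 were lower and 5 were not called, with a median difference of −0.03. Over all 7361 tested genes 2.70% were called, and the median difference was 0.00. A wider list held 50 other complement genes, of which 37 had a probe set of their own and 14 were tested. Of these 14 genes 1 was higher in QSi5, 0 were lower and 13 were not called. An unadjusted limma p under 0.05 was found for 3 of them, and for 1098 of all 7361 tested genes. Their median difference was 0.03.

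Among the lectins, Fcna was the gene called higher. Fcna encodes ficolin A, a plasma lectin that binds sugars on microbes and is made by macrophages. Its probe set 1418243_at read 6.12, 5.96, 5.62, 6.31 and 6.13 in CBA mice 1 to 5 and 7.43, 6.68, 6.89, 6.65 and 6.83 in QSi5 mice 1 to 5. Every QSi5 mouse was above every CBA mouse, with a difference of 0.87 (SE 0.17, interval 0.50 to 1.24, limma adjusted p 0.0143). It was 0.60 on MOE430 2.0 arrays and 1.27 on MOE430A 2.0 arrays, and it was not called on either array type alone, at adjusted p values of 0.0691 and 0.193. The mannose-binding lectin gene Mbl1 differed by −0.01 (SE 0.11, limma adjusted p 0.983). Its means, 4.44 in CBA and 4.43 in QSi5, lay close to the intensity minimum.

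The terminal components, which form the membrane attack complex, held 3 tested genes and none was called. Their differences were −0.29 for C6, 0.13 for C8g and −0.03 for C9. Means in CBA and QSi5 were 4.66 and 4.36 for C6, 4.28 and 4.41 for C8g, and 4.70 and 4.68 for C9. All lay close to the intensity minimum, which C8g passed through QSi5 alone. Of the soluble regulators Clu, which encodes clusterin, an inhibitor of the attack complex, read from 11.50 to 12.95 in CBA and from 11.10 to 11.89 in QSi5. The strains overlapped, and the difference was −0.66 (SE 0.25, limma adjusted p 0.221), with 4 probe sets between −0.77 and −0.65. Vtn, the vitronectin gene, differed by 0.13, with low means of 4.67 in CBA and 4.80 in QSi5. Among membrane regulators Cd55, which encodes decay-accelerating factor, differed by 0.48 (SE 0.16, limma adjusted p 0.161). The other membrane regulators were Susd4 at 0.30, Cd59a at −0.20 and Cr1l at −0.06. Among receptors and binding proteins Itgb2, the shared chain of the complement receptor integrins, differed by 0.41, C1qbp by −0.24 and Itgax by 0.07. Itgb2 and Itgax passed the intensity minimum through QSi5 alone, with means of 4.42 and 4.37 there and 4.01 and 4.30 in CBA. For Itgb2, QSi5 mouse 4 read 5.44 and the other QSi5 mice read 4.01 to 4.53. None of these genes was called. Of the alternative route list, Cfp lay below the intensity minimum, and no probe set carried Cfd alone.

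**Figure D3:**
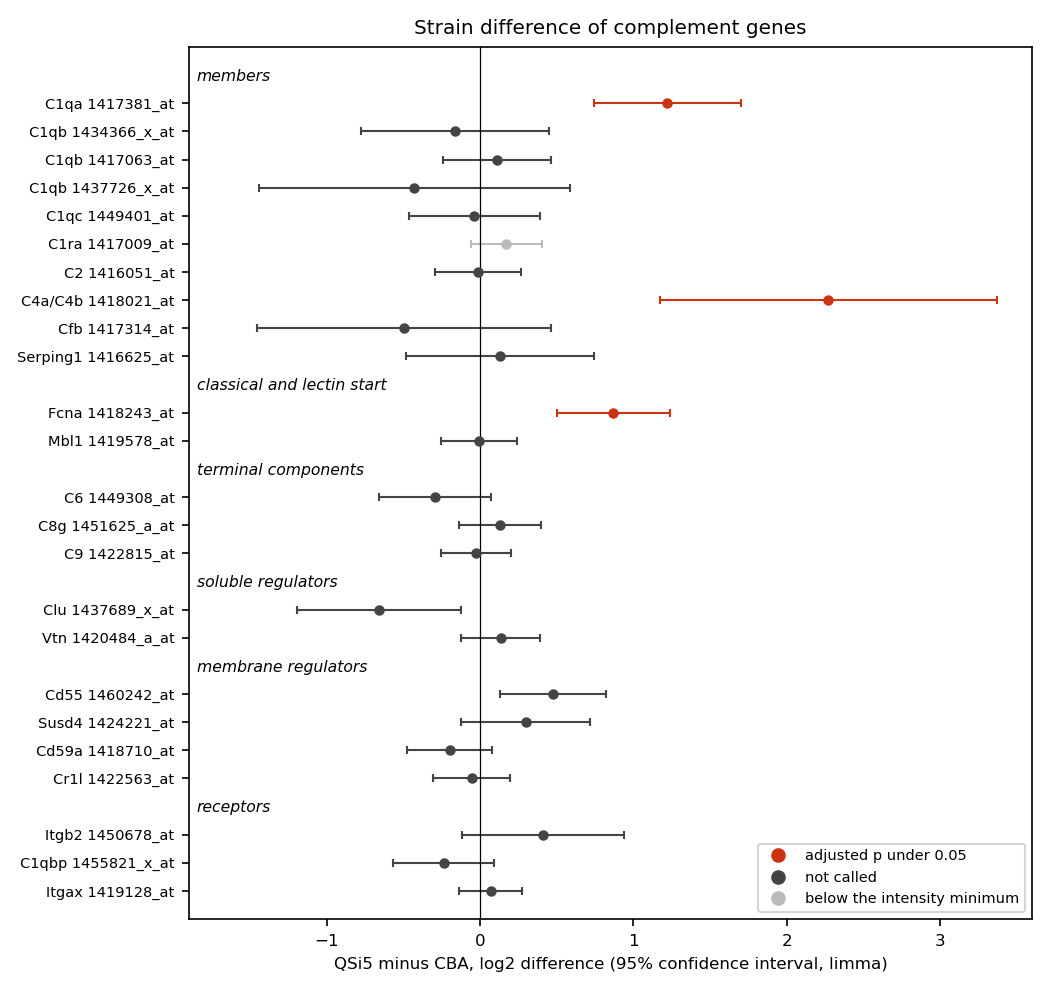
QSi5 minus CBA difference in log2 intensity (horizontal axis) with its 95% limma interval for each complement probe set and for the tested genes of the wider list by role (vertical axis). C1qa (1.22), the shared C4a/C4b probe set (2.27) and Fcna (0.87), in red, have an adjusted p under 0.05, while the intervals of the other C1q probe sets, C2, Cfb and Serping1 include 0.

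Acute phase genes, many of which are induced along with complement in inflamed tissue, were also compared. Of 16 listed genes 12 were tested, 3 were lower in QSi5 and 0 were higher. Over all 7361 tested genes 102 were lower and 97 were higher, or 2.70% called. Saa1, a serum amyloid gene, differed by −4.97 (SE 1.04, limma adjusted p 0.0225), Saa3 by −3.95 (SE 0.94, limma adjusted p 0.0451) and the orosomucoid gene Orm1 by −2.33 (SE 0.52, limma adjusted p 0.0306). With array type as a block Saa2 (−4.67, limma adjusted p 0.0165) and Orm2 (−3.04, limma adjusted p 0.0116) were called too, which made 5 of 12 lower. The block called 3.62% of all tested probe sets. The list's level ran from −0.25 to 2.23 in CBA and from −1.43 to −0.19 in QSi5. C1qa, C4a/C4b and Fcna were thus higher in the strain in which these 3 genes were lower. Of the lists for other cells, those for B and T cells (3 tested genes), adipocytes (5), fibroblasts (8) and endothelium (2) held none that was called without the block. With it the fat cell gene Fabp4 was called lower in QSi5 (−0.73, limma adjusted p 0.0383). The secretory epithelium list held 1 of 9, Krt8, lower in QSi5 with a difference of −0.83 (SE 0.16, limma adjusted p 0.0161), and with the block also Lalba, the alpha-lactalbumin gene, higher at 0.40 (limma adjusted p 0.0405).

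C4b, Cfb and C2 lie in the class III region of the major histocompatibility complex on chromosome 17, and the genes around them were read in RefSeq order. Within the span from C4b to C2, 6 genes were tested, and Stk19 and Dxo were higher in QSi5. Stk19, beside C4a, differed by 1.39 (SE 0.11, limma adjusted p 1.55e-05), and Dxo, an RNA decapping enzyme gene, by 0.58 (SE 0.11, limma adjusted p 0.010). Further along the same span Nelfe differed by 0.26, Cfb by −0.50 and C2 by −0.01, and none of these was called. Of the nearest 10 tested genes before C4b 0 were called, the nearest to the threshold being Agpat1, at 0.44 (limma adjusted p 0.0546). Of the nearest 10 after C2, 2 were lower in QSi5, D17H6S56E-5 with a difference of −5.38 (SE 0.34, limma adjusted p 1.81e-06) and the valyl-tRNA synthetase gene Vars with one of −1.70 (SE 0.13, limma adjusted p 7.01e-06). With array type as a block Hspa1b, a heat shock protein gene at −0.87, was called as well (limma adjusted p 0.0105), which made 3 of 10 after C2. In all 4 of 26 genes, or 15.4%, were called in both directions, against 2.70% of all tested genes. With the block 5 of 26 were called, against 3.62% of all tested probe sets.

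**Figure D4:**
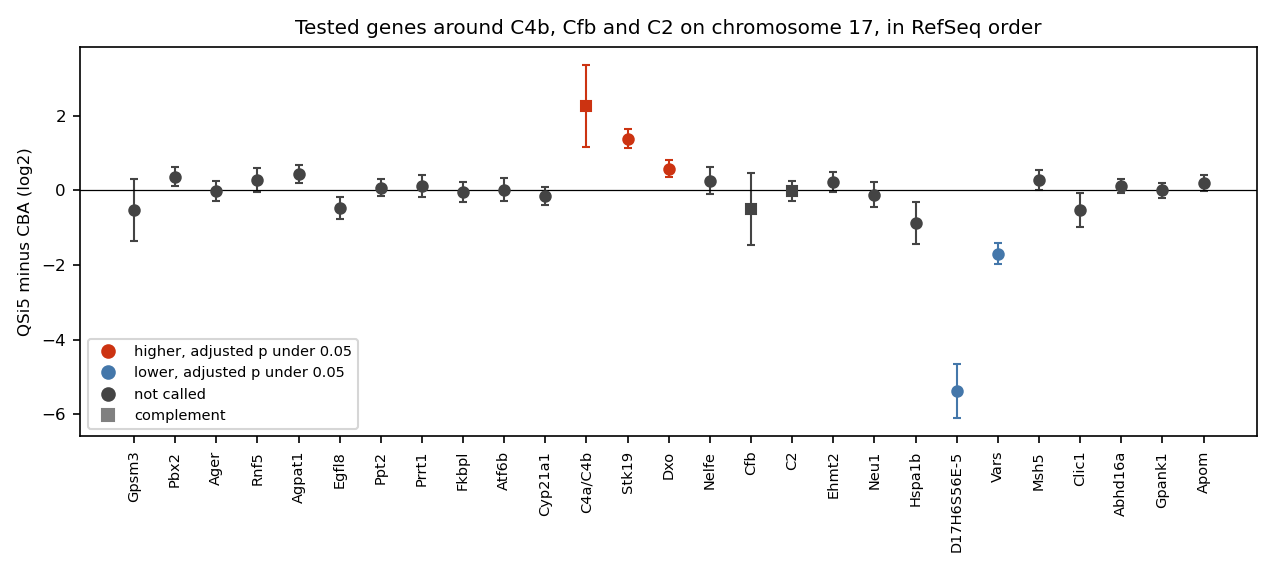
QSi5 minus CBA difference in log2 intensity with its 95% limma interval (vertical axis) for the tested genes around C4b, Cfb and C2, in RefSeq order and not to distance (horizontal axis), with squares for complement and the shared C4a/C4b probe set drawn at C4a. Calls in both directions (2.27 for C4a/C4b, 1.39 for Stk19, −5.38 for D17H6S56E-5) lie among genes near 0, Cfb and C2 included.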

How the data were processed

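RNA from 5 CBA and 5 QSi5 glands was measured on 10 Affymetrix arrays, and the arrays limit the precision. The deposited log2 values were made by the authors with RMA (affy package, version not given in the sources used here) over the 22690 probe sets common to both array types, normalized together. Strains and replicate numbers came from the sample labels. The methods name 1 array type and the right gland, whereas the labels give 2 array types and the fourth inguinal gland.

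After 64 control probe sets were removed, 11412 with a strain mean above 20 (unlogged) were kept, as in the study. QSi5 minus CBA was fitted with limma 3.58.1 (R 4.3.3, lmFit and eBayes, two-sided) and BH adjusted over all of them. Of 20380 probe sets with 1 symbol, 20351 matched RefSeq (GRCm38.p6) by Entrez identifier and 0 symbols changed. Another 691 carried several symbols and 1555 are unnamed here. Gene counts use the brightest probe set. Likeness is Pearson r after strain means were subtracted.

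Genes and lists were chosen with earlier results of these data known. Named are all complement genes with all their probe sets, up to 2 genes per role, and called genes of other lists and neighbours. Named too are the 5 genes most like the C1q mean and the 5 most like Cfb. The macrophage genes, Saa2, Orm2, Fabp4, Lalba, Hspa1b, Agpat1, Nelfe and the genes most like Cfb were named after their values were seen. The mice were treated as unpaired, as deviations of same-numbered mice correlated at −0.37 to 0.29, with 1 of 5 above 0.1. These correlations do not address single genes. With replicate numbers as a block the SE of C4a/C4b was 0.29, against 0.50 without it. For C1qa it was 0.22 both ways, and for C2 it was 0.14 against 0.13. A replicate effect on single genes was not tested. P-values measure the spread between mice, 1 array each. On simulated data of 11412 probe sets, 18 of 50 changes of 0.5, 39 of 50 of 1, 49 of 50 of 2 and 50 of 50 of 3 log2 units were recovered. Quantile normalization within RMA acts on probe intensities, and array medians of the deposited values still ran from 4.21 to 4.30. Differences are relative to the other probe sets. For no probe set was a sequence difference between the strains under its probes tested for. Alternatives changed the intensity minimum, normalization, array type, replicate block, variance model or probe sets with shared probes, or left out 1 mouse. The list levels, the likeness to Cfb without CBA mouse 3 and the C1q contrast were added after seeing the data.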

Additional observations from a re-analysis of the deposited data

Results flagged for a closer look

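In 64 groups of 5 mice (32 measurements in 2 strains), 6 had 1 mouse far from the others by Dixon's criterion, which chance alone meets in about 1 of 20 groups. In CBA mouse 3 the Cfb reading was 8.0 against 5.12 to 5.59 in the other CBA mice, and the interferon-induced list level was 2.26 against −0.48 to −0.31. In QSi5 mouse 4 the B and T cell list level was 1.53 against −0.22 to 0.02 in the other QSi5 mice. The C1qc reading of QSi5 mouse 1 was 5.83 against 5.45 to 5.49, a narrow range in the other QSi5 mice. The Cd59a reading of CBA mouse 1 was 7.97 against 7.36 to 7.51, and the C1qbp reading of QSi5 mouse 2 was 9.58 against 10.03 to 10.19.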

How the results depend on the processing

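The count of called complement genes was 1 (C1qa) in 21 of 22 alternatives and 0 on the MOE430A 2.0 arrays alone. At an intensity minimum of 50 only 3 complement genes were tested, C1qa, C1qb and Cfb, while C1qc, C2 and Serping1 dropped out. The count for the wider list was 1 (Fcna) in 20 of 22 alternatives and 0 on either array type alone. Replicate numbers as a block left both counts at 1 and left the shared C4a/C4b probe set called (limma adjusted p 0.00737), and no other call changed among the complement genes it was run on. Without 1 mouse at a time both counts were 1 throughout. The C4a/C4b call was lost with no intensity minimum (adjusted p 0.0514), on MOE430 2.0 arrays alone (0.204), and without CBA mouse 2 (0.0677), 4 (0.0570) or 5 (0.0628) or QSi5 mouse 1 (0.0795), 2 (0.0745), 3 (0.0734) or 5 (0.0610). The C1qa contrast with C1qb and C1qc was 1.39 on MOE430 2.0 arrays alone and 0.88 on MOE430A 2.0 arrays alone.

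Signs changed for some differences that were called in no alternative. On MOE430 2.0 arrays alone C1qb (1417063_at) was −0.11, C1qc 0.064, Cfb 0.0011 and Mbl1 0.011. On MOE430A 2.0 arrays alone C2 was 0.040, Serping1 −0.17 and Vtn −0.040. With array weights C1qc was 0.060, C2 0.0042 and Mbl1 0.021. With 1 mouse left out at a time the differences ran from −0.31 to 0.039 for C1qb 1434366_x_at, −0.65 to 0.0038 for C1qb 1437726_x_at, −0.19 to 0.13 for C1qc, −0.097 to 0.051 for C2, −0.70 to 0.014 for Cfb, −0.076 to 0.40 for Serping1 and −0.064 to 0.049 for Mbl1. The highest values of both C1qb sets, C1qc, C2 and Cfb were those without CBA mouse 3. The cause was not tested.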
